A study of Mus musculus with 10 samples.

Results

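The spliceosome removes introns from pre-mRNA, and its core is a set of small nuclear ribonucleoproteins (snRNPs), each an RNA (U1, U2, U4, U5 or U6) with its proteins. The genes described here encode the proteins of these snRNPs, the Lsm family and the Prpf splicing factors. They were taken by name from an RNA-seq table of male mouse embryonic stem cells (mESCs): every feature whose name starts with Snrp or Snrnp, with Lsm, Prpf or Sf3a and Sf3b followed by a number, and 5 further genes, Nhp2l1, Eftud2, Usp39, Sart1 and Sart3. The rule found 57 of 25965 features, and no measured value entered it. No feature carried the names Sf3b6 (also called Sf3b14) or Lsm8, so these partners of members below were not analysed here. All 57 passed the filter on low values, a log2 level above 0 in at least 50% of the libraries.

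All cells were male mESC lines of the C57/Bl6 strain kept in 2i medium, a defined medium with inhibitors that hold mESCs in the naive state, and none carried a further labelled allele or agent. There were 2 independent lines, derived under the method Keniry2022. Each was split at passage 0 (p0) and grown to passages 10 and 20 (p10, p20) under Keniry2022, in suspension with daily passaging, or under the reference method Mulas2019, attached to gelatin and passaged less often. Each of the 5 groups (p0, p10 Keniry2022, p20 Keniry2022, p10 Mulas2019, p20 Mulas2019) held 2 libraries, 1 per line, and p20 Keniry2022 was matched in days of culture with p10 Mulas2019. One line lost its Y chromosome before p0, all cells had started under Keniry2022, and passages of 1 line are not independent derivations, so p-values measure the spread between these libraries.

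Levels are log2 RPKM, read counts scaled to exon length and library total, so they can be compared between genes. A difference is a difference of log2 levels, and a member is called higher or lower when the adjusted p from limma, over all features tested, was under 0.05. Library totals lay between 24054000 and 30236828 reads. The mESC markers Pou5f1 and Nanog were at log2 8.29 or more in every library, and of the markers of other cell types none was above 1.58 (Eomes, a trophoblast marker). In p0 replicate 1 members with short transcripts stood high and members with long ones low, described below. The Y-linked reads of p20 Keniry2022 were in the opposite order to its replicate numbers, with 6659 in replicate 1 and 48 in replicate 2, against at most 132 and at least 4578 in the other groups. This exchange touches pairing by number only. In bulk RNA, fewer cells of a type and less RNA per cell cannot be told apart.

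In the mature complex 7 Sm proteins form a ring on each of the U1, U2, U4 and U5 RNAs, and 7 Lsm proteins form a like ring on U6. U1 recognises the 5′ splice site and U2, with the SF3A and SF3B complexes, the branch site. U4/U6 and U5 then join as the tri-snRNP, in which Prpf8 and the helicase Snrnp200 set up the active site. A minor spliceosome with U11 and U12 removes a rare class of introns. Most core proteins of these complexes are housekeeping components that dividing cells such as mESCs need throughout.

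The DNA just before the RefSeq start of 3 members is shown first, because a short motif that the rule did not use was frequent in the members' promoters. Snrpb2 and Snrpe hold it, and Prpf31, whose call between the methods held in every alternative described below, does not. RefSeq promoter windows (GRCm38.p6, 250 bases before to 50 after the start) were matched to 43 of the 57 members. The 120 bases before the start are given 5′ to 3′ on the gene's strand for Snrpb2 (chr2:143062949-143063068, + strand), Snrpe (chr1:133610281-133610400, - strand) and Prpf31 (chr7:3629865-3629984, + strand), which were all higher under Keniry2022 than under Mulas2019. Capitals mark exact matches to any of 6 short motifs searched on both strands. They are CGGAAG, one form of the ETS factor site, the CCAAT box CCAAT, the GC box GGGCGG and the TATA box TATAAA. Sites of YY1 (AAGATGGCG) and NRF1 (GCATGCGC) complete the set. Other forms of the ETS site, such as cggaaa in Prpf31, were not searched and stay in lower case.
Snrpb2: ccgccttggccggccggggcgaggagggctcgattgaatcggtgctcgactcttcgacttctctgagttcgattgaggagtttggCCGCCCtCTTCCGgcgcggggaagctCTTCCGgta
Snrpe: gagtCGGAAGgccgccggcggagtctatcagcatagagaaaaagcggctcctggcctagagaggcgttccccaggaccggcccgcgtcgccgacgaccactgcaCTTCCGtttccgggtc
Prpf31: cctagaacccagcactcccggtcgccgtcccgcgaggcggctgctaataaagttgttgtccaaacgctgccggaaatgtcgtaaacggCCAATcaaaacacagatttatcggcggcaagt
Over the whole windows of 300 bases, CGGAAG stood in 26 of the 43 member promoters (60.5%). It stood in 32.0% of 10199 promoters of features tested here and in 16.9% of all 32851. A member entered once, with the promoter nearest its gene start, whereas these larger sets hold every RefSeq start of a gene. The shares are therefore of unlike units. In percentage points the other motifs were nearer the level of tested features. GGGCGG stood in 67.4% of members against 64.5%, CCAAT in 39.5% against 38.6% and TATAAA in 6.98% against 6.58%. GCATGCGC stood in 6.98% against 5.71% and AAGATGGCG in 6.98% against 3.20%. By ratio AAGATGGCG, found in 3 members, was farther from that level than CGGAAG. Members called higher between the methods held CGGAAG in 10 of 16 promoters and the others in 16 of 27, so CGGAAG was about as frequent in both. These matches describe letters in a window and were not tested.

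Most of these genes were well expressed. Mean levels over the 10 libraries ran from log2 0.85 (Lsm7) to 7.99 (Snrpd3), with a median of 5.15. The Sm ring was the most abundant class, with a median of 6.45, although its genes ranged from 5.07 (Snrpn) to 7.99 (Snrpd3). The U5 proteins lay close together, from 5.20 (Eftud2) to 6.45 (Prpf8). The U6 Lsm ring ran from 0.85 (Lsm7) to 7.06 (Lsm4), and the U1 proteins from 1.01 (Snrpc) to 7.68 (Snrnp70). Lsm7 rested on 17 to 30 reads a library, so its level is imprecise, and every other member on at least 143.

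The main question was whether the culture method changed these mRNAs, and p10 and p20 were pooled to give 4 libraries per method. Most Sm ring genes, 4 genes of the U6 Lsm ring, Sf3b4, Sf3b5 and the U4/U6 proteins Nhp2l1 and Prpf31 were higher under Keniry2022. The U1-associated Prpf40b and the U5 proteins Prpf8 and Snrnp200 were lower. Prpf8 and Snrnp200 had almost no difference after length and GC correction, described below. Higher and lower here compare the methods with each other. No member was called against p0 under Keniry2022, but the p0 pair was far apart, described below, so this does not show unchanged levels. Of the 57 members, 25 were called higher under Keniry2022 and 7 lower, and 25 were not called. Over all 11654 features tested, 25.9% were called higher and 25.5% lower, so 43.9% of members against 25.9% were higher and 12.3% against 25.5% lower. The median difference of the members was 0.10 and that of all features -0.003. The excess of higher calls depended on the scaling: after quantile normalisation 18 members (31.6%) were higher and 15 (26.3%) lower, against 23.1% and 22.9% of features, with a median of 0.01. In a model of all 5 groups, which takes the wide p0 pair into its spread, 6 were higher and 1 lower, against 8.65% and 10.6%. The differences were small, from -0.50 (Prpf40b, 1.41-fold) to 0.49 (Snrpg, 1.40-fold).

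**Figure D1:**
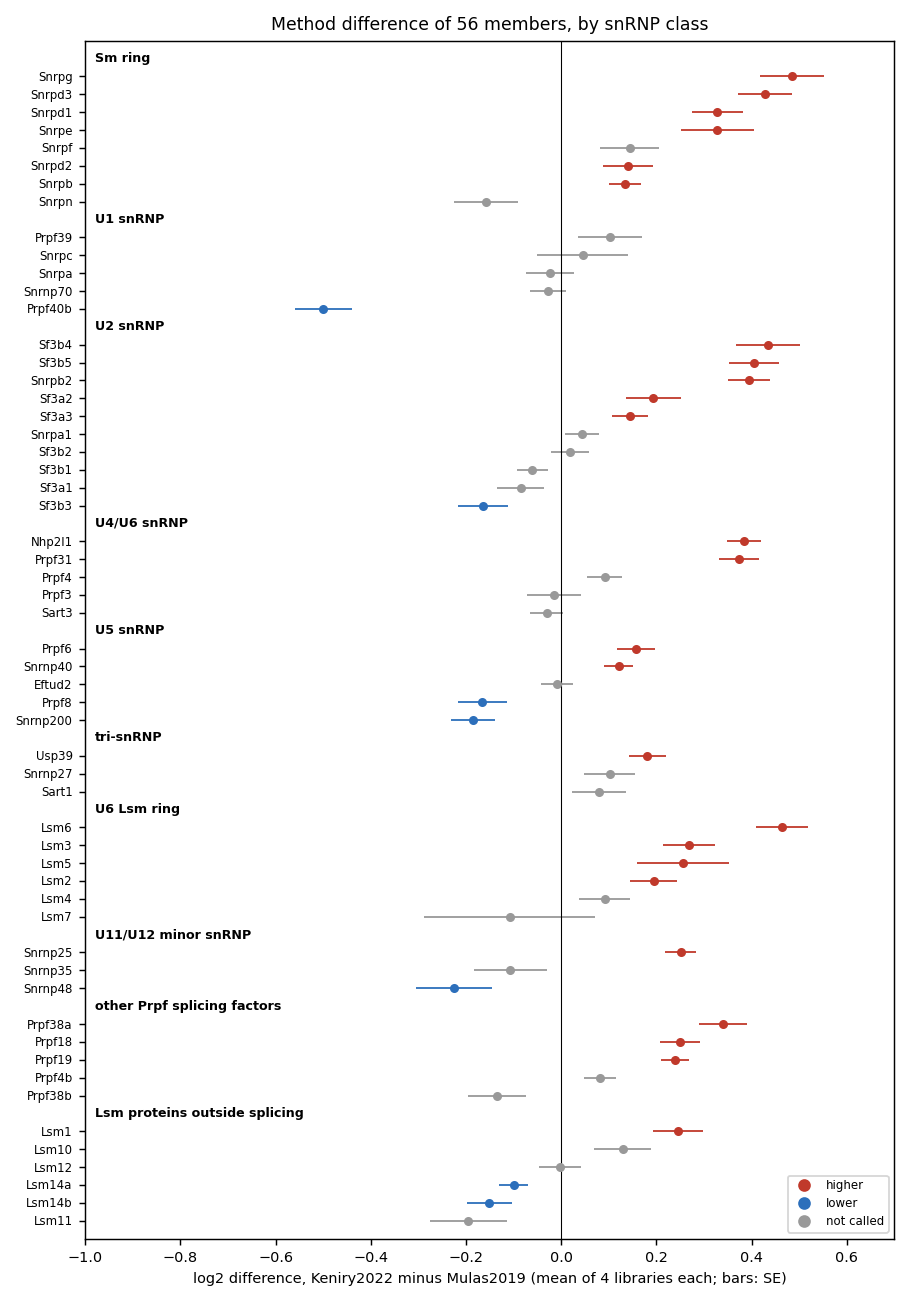
Log2 difference between the methods (Keniry2022 minus Mulas2019, horizontal axis) for 56 of the 57 members, grouped by class; points are means over 4 libraries per method, bars the SE, red higher, blue lower and grey not called. The Sm ring and the U6 Lsm ring lie mostly to the right, Prpf40b lies farthest left at -0.50.

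In 24 members the lowest Keniry2022 library exceeded the highest Mulas2019 library, and in 5 the reverse held. Over the features tested these shares were 23.1% and 23.4%, against 42.1% and 8.77% of members. In the values below, libraries are given in the order p10 replicates 1 and 2, p20 replicates 1 and 2.

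In the Sm ring, 6 of 8 members were higher under Keniry2022 and none was called lower, with a median difference of 0.24. After quantile normalisation and after length and GC correction 4 were higher and 1 lower, with medians of 0.10 and 0.14. Snrpd3, which binds the snRNA with its partner Snrpb, had 8.24, 8.23, 8.10 and 8.04 under Keniry2022, 7.84, 7.68, 7.72 and 7.64 under Mulas2019, and 8.46 and 7.98 at p0. The means were 8.15 ± 0.10 and 7.72 ± 0.08 (SD, n = 4), a difference of 0.43 (SE 0.06, limma adjusted p = 0.000249). The groups did not overlap, and p0 replicate 2 lay between them.

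Snrpg, with the shortest exon length of the ring, had 6.30, 6.20, 6.23 and 6.01 under Keniry2022, 5.66, 5.58, 5.81 and 5.75 under Mulas2019, and 7.05 and 6.08 at p0, a difference of 0.49 (SE 0.07, limma adjusted p = 0.000322). Snrpd1 had 6.79, 6.73, 6.78 and 6.69 against 6.52, 6.26, 6.42 and 6.46, with 7.63 and 6.78 at p0, a difference of 0.33 (SE 0.05, limma adjusted p = 0.000815). In both, p0 replicate 2 sat at the Keniry2022 level. Snrpe had 5.78, 5.71, 5.78 and 5.65 against 5.16, 5.54, 5.40 and 5.51, with 6.82 and 5.45 at p0, and Snrpb, which forms a dimer with Snrpd3, had 6.93, 6.91, 6.96 and 6.95 against 6.80, 6.87, 6.79 and 6.76, with 7.31 and 6.93 at p0. Snrpd2 was called with overlapping groups (difference 0.14, limma adjusted p = 0.0472, and 0.0564 with the replicate number as a block). Snrpn, the imprinted paralog of Snrpb, was not called (-0.16, SE 0.07, limma adjusted p = 0.0751), nor was Snrpf (0.14, SE 0.06, limma adjusted p = 0.0726).

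Reads of several Sm genes could be shared with near-identical copies. At least 25.1% of the transcript of Snrpd2, Snrpg, Snrpe, Snrpd1 and Snrpn matched another gene's transcript, 100% of Snrpf matched other genes, the overlapping antisense gene Ccdc38 among them, and Snrpn overlaps Snurf, which it shares a transcript with. Outside this ring, parts of Snrpa (71.2%), Sf3b4 (71.0%), Lsm5 (56.5%), Snrpc (42.4%) and Lsm7 (27.8%) also matched other genes. So did parts of Lsm12 (24.6%), Lsm3 (23.6%), Sf3a2 (19.4%) and Nhp2l1 (18.5%), and smaller parts of several other members. How the counting treated such reads is not given in the sources used here, so the values of all these genes are uncertain.

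Among the U1 proteins, 1 of 6 was called, and it was lower. Prpf40b, a U1-associated protein thought to help bridge the splice sites (chromosome 15, 99295087 to 99317018), had 2.42, 2.29, 2.19 and 2.29 under Keniry2022 and 2.71, 2.81, 2.85 and 2.81 under Mulas2019, with 2.44 and 2.25 at p0. Its difference was -0.50 (SE 0.06, limma adjusted p = 0.000163), and both p0 libraries lay below every Mulas2019 library. Snrnp70, the defining U1 protein and the most abundant here, was at 7.65 ± 0.04 and 7.68 ± 0.06 (SD, n = 4), a difference of -0.03 (SE 0.04, limma adjusted p = 0.57).

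Among the U2 proteins, 5 of 10 were higher under Keniry2022 and 1 lower, with a median difference of 0.09, which after quantile normalisation was -0.01 with 3 higher and 4 lower. Snrpb2, which binds U2 RNA with Snrpa1, had 5.20, 5.19, 5.23 and 5.09 against 4.83, 4.70, 4.79 and 4.84, and 6.37 and 5.45 at p0, a difference of 0.39 (SE 0.04, limma adjusted p = 0.000125). Its partner Snrpa1 was not called (0.04, SE 0.04). Of the SF3B complex, which clamps the branch site, Sf3b5 had 7.19, 7.12, 7.18 and 7.19 against 6.60, 6.85, 6.78 and 6.82, with 8.14 and 7.21 at p0, a difference of 0.40 (SE 0.05, limma adjusted p = 0.000235).

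Sf3b4, which contacts RNA next to the branch site, had 4.03, 4.15, 4.02 and 4.19 against 3.48, 3.74, 3.68 and 3.76, with 4.23 and 3.73 at p0, a difference of 0.43 (SE 0.07, limma adjusted p = 0.000552), though 71.0% of its transcript matched other genes. The large scaffold Sf3b3 went the other way, at 6.84 ± 0.05 against 7.01 ± 0.11 (SD, n = 4), a difference of -0.16 (SE 0.05, limma adjusted p = 0.0242) with overlapping groups. Sf3b1, which holds the branch site, did not overlap (6.56, 6.54, 6.59 and 6.58 against 6.69, 6.63, 6.59 and 6.60, with 6.10 and 6.64 at p0) but was not called (-0.06, SE 0.03, limma adjusted p = 0.151). In SF3A, Sf3a3 had 5.93, 5.92, 5.82 and 5.90 against 5.78, 5.79, 5.71 and 5.72, with 5.92 and 5.76 at p0, and was called higher, and so was Sf3a2 with overlapping groups (0.19, SE 0.06), whereas Sf3a1 was not called (-0.09, SE 0.05).

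In U4/U6, 2 of 5 proteins were higher and none lower. After length and GC correction 4 were higher, and after quantile normalisation 2 higher and 1 lower. Nhp2l1, which binds a kink in the U4 RNA (chromosome 15, 82041319 to 82047598), had 4.79, 4.85, 4.79 and 4.75 under Keniry2022, 4.43, 4.43, 4.40 and 4.38 under Mulas2019, and 5.42 and 4.90 at p0. Its difference of 0.38 (SE 0.04) had the smallest p of all members (limma adjusted p = 5e-05). Prpf31, which binds next on that RNA (chromosome 7, 3629985 to 3642486), had 4.99, 4.98, 4.87 and 4.88 against 4.52, 4.52, 4.59 and 4.59, a difference of 0.37 (SE 0.04, limma adjusted p = 0.000119). At p0 it was at 4.71 and 4.76, between the methods in both libraries. Its antisense neighbour Gm15927 overlaps it. Prpf4 did not overlap (4.09, 4.12, 4.03 and 4.06 against 3.97, 3.97, 3.99 and 4.01, with 3.95 and 3.94 at p0) but missed the threshold (0.09, SE 0.04, limma adjusted p = 0.0585). Sart3, a recycling factor for U4/U6 and the most abundant of this class, was at 5.41 ± 0.04 and 5.44 ± 0.03 (SD, n = 4).

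The U5 proteins moved in opposite directions, with 2 of 5 higher and 2 lower, and after quantile normalisation none higher and 3 lower. After length and GC correction Prpf8 was at 0.0016, and Snrnp200 and Snrnp40 also lost most of their difference, as given below. Snrnp200, the helicase that unwinds U4 from U6, had 5.72, 5.80, 5.79 and 5.87 under Keniry2022, 6.03, 6.05, 5.95 and 5.88 under Mulas2019, and 4.77 and 5.66 at p0, a difference of -0.19 (SE 0.05, limma adjusted p = 0.00723). Prpf8, the central scaffold, was at 6.51 ± 0.09 and 6.68 ± 0.07 (SD, n = 4), a difference of -0.17 (SE 0.05, limma adjusted p = 0.0208) with overlapping groups. Prpf6, a bridge in the tri-snRNP, had 5.40, 5.50, 5.49 and 5.54 against 5.38, 5.30, 5.35 and 5.28, with 5.17 and 5.48 at p0, a difference of 0.16 (SE 0.04, limma adjusted p = 0.00833). Snrnp40, a WD-repeat protein, had 6.46, 6.38, 6.45 and 6.44 against 6.29, 6.34, 6.31 and 6.30, with 6.71 and 6.52 at p0, a difference of 0.12 (SE 0.03, limma adjusted p = 0.00866), which was gone after quantile normalisation (-0.002). Eftud2, the GTPase of U5, was not called (-0.01, SE 0.03, limma adjusted p = 0.832).

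Of the 3 proteins added with the tri-snRNP, Usp39 had 5.46, 5.38, 5.47 and 5.47 against 5.33, 5.25, 5.28 and 5.20, with 5.29 and 5.45 at p0, a difference of 0.18 (SE 0.04, limma adjusted p = 0.00325). Sart1 and Snrnp27 were not called. In the U6 Lsm ring, which binds the 3′ end of U6, 4 of 6 members were higher, with a median difference of 0.23. After quantile normalisation 4 were higher (median 0.14) and after length and GC correction 2 (median 0.11). Lsm6 (chromosome 8, 78804865 to 78821140) had 3.04, 3.15, 3.07 and 3.10 under Keniry2022, 2.57, 2.57, 2.76 and 2.60 under Mulas2019, and 3.34 and 2.97 at p0, a difference of 0.46 (SE 0.06, limma adjusted p = 0.000156).

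Lsm3 had 6.33, 6.28, 6.45 and 6.19 against 6.06, 5.99, 6.002 and 6.11, with 7.55 and 6.54 at p0, a difference of 0.27 (SE 0.05, limma adjusted p = 0.00248). Lsm2 had 4.43, 4.45, 4.34 and 4.40 against 4.10, 4.32, 4.22 and 4.21, with 4.93 and 4.37 at p0, a difference of 0.19 (SE 0.05, limma adjusted p = 0.00847). The Keniry2022 libraries lay above the Mulas2019 libraries in both genes. Lsm4, the most abundant of this ring, was not called (0.09, SE 0.05, limma adjusted p = 0.182), and Lsm5 was called with overlapping groups (0.26, SE 0.10, limma adjusted p = 0.0481, and 0.0584 with the replicate block).

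Of the 3 minor spliceosome proteins, 1 was higher and 1 lower. Snrnp25 of the U11 snRNP had 5.18, 5.12, 5.20 and 5.13 against 4.90, 4.92, 4.89 and 4.92, with 6.10 and 5.28 at p0, a difference of 0.25 (SE 0.03, limma adjusted p = 0.00025). Snrnp48, which helps recognise the 5′ splice site of these introns, was at 3.65 ± 0.13 and 3.87 ± 0.14 (SD, n = 4), a difference of -0.23 (SE 0.08, limma adjusted p = 0.0387). Its groups overlapped, and the call held in 11 of the 20 alternatives described below.

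Among the other Prpf factors 3 of 5 were higher. Prpf19, the ubiquitin ligase that names the activating complex, had 5.68, 5.67, 5.69 and 5.65 against 5.42, 5.42, 5.45 and 5.44, with 5.74 and 5.63 at p0, a difference of 0.24 (SE 0.03, limma adjusted p = 0.000174). Prpf38a, needed for activation, had 4.61, 4.61, 4.58 and 4.53 against 4.32, 4.19, 4.13 and 4.32, with 5.23 and 4.76 at p0, a difference of 0.34 (SE 0.05, limma adjusted p = 0.000465). Prpf18, a second-step factor, had 3.71, 3.72, 3.69 and 3.61 against 3.47, 3.40, 3.41 and 3.45, with 3.40 and 3.71 at p0, a difference of 0.25 (SE 0.04, limma adjusted p = 0.000944). All of them were without overlap between the methods. The kinase Prpf4b also did not overlap (4.91, 4.99, 4.98 and 4.92 against 4.88, 4.84, 4.89 and 4.87, with 4.08 and 4.98 at p0) and was not called (0.08, SE 0.03, limma adjusted p = 0.0683).

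Lsm proteins that act outside splicing, in mRNA decay, histone mRNA processing or RNA granules, showed no common direction. Lsm1, of the cytoplasmic decay ring, had 3.40, 3.35, 3.30 and 3.32 against 3.22, 3.07, 3.04 and 3.05, with 4.18 and 3.28 at p0, a difference of 0.25 (SE 0.05, limma adjusted p = 0.00328). The granule proteins were lower: Lsm14a had 5.81, 5.79, 5.81 and 5.79 against 5.95, 5.90, 5.87 and 5.88, with 5.59 and 5.85 at p0 (difference -0.10, SE 0.03, limma adjusted p = 0.0201), and Lsm14b had 4.55, 4.54, 4.66 and 4.66 against 4.71, 4.84, 4.68 and 4.77, with 4.68 and 4.61 at p0 (difference -0.15, SE 0.05, limma adjusted p = 0.0222). Lsm12, Lsm10 and the U7 protein Lsm11 were not called.

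**Figure D2:**
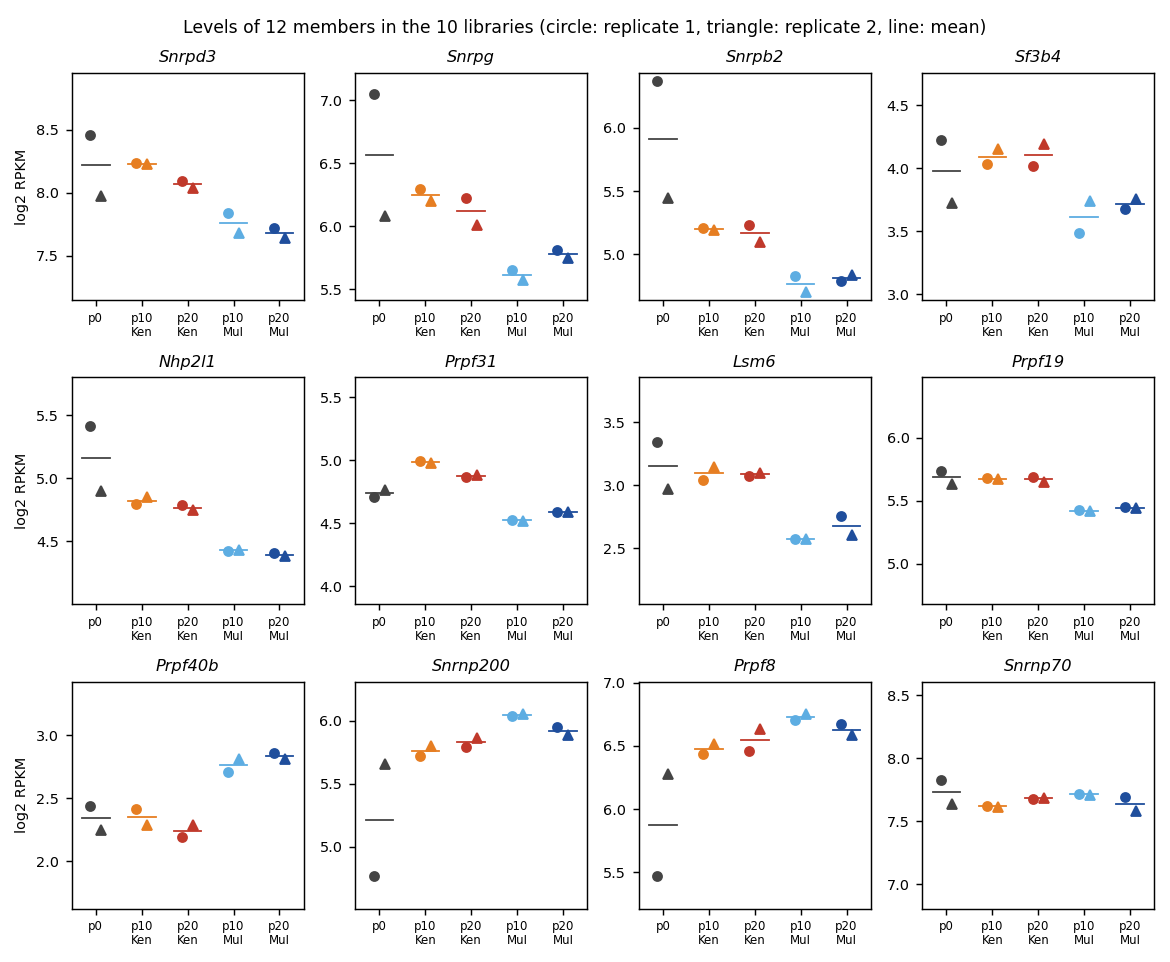
Levels (log2 RPKM, vertical axis, all panels spanning the same range of log2 units) of 12 members in the 5 groups; circles are replicate 1, triangles replicate 2 and lines group means of 2 libraries. Keniry2022 libraries lie above Mulas2019 libraries in the first 8 panels and below them for Prpf40b and Snrnp200; p0 replicate 1 stands apart in several panels.

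Part of this pattern ran with transcript length. Across the 57 members the difference between the methods had a Pearson r of -0.37 with log2 exon length, and across 11654 features -0.21; points share the same 8 libraries. Of the 29 members at or below the median length of 2857 bases, 18 were higher and 1 lower, with a median difference of 0.14. Of the 28 longer members, 7 were higher and 6 lower, with a median of 0.03. Exon length and GC content were therefore fitted out of each library as an alternative.

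With that correction 24 members were higher and 7 lower, or 42.1% and 12.3%, against 27.5% and 19.6% of all features. Of the calls above, 19 higher and 5 lower were shared. Snrnp200 and Prpf8 were then near 0 (-0.02 and 0.0016), as was Snrnp40 (0.04), and Snrpd1, Snrpd2, Lsm3, Lsm5 and Sf3a3 lost their calls. Prpf31 (0.48), Sf3b4 (0.48), Lsm6 (0.44), Prpf19 (0.40), Snrpd3 (0.29), Nhp2l1 (0.26) and Prpf40b (-0.31) kept theirs, and these 7 were the members called in the same direction in all 20 alternatives, the model of 5 groups among them. Prpf4, Sart3, Eftud2 and Sart1 were among those newly called higher, and Snrpn and Prpf38b were newly lower. How far length itself accounts for the other calls was not tested.

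**Figure D3:**
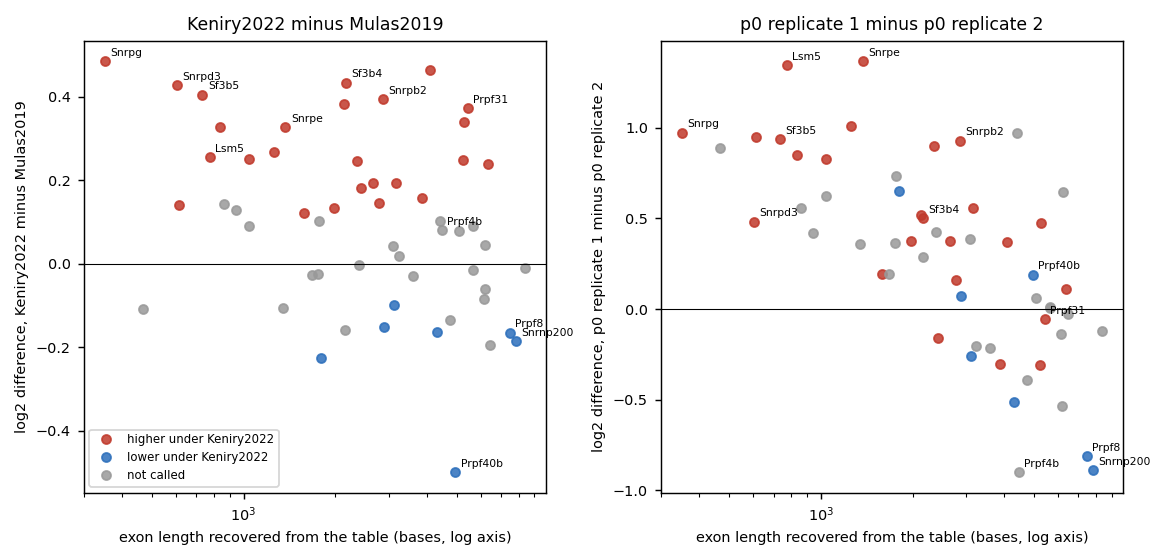
Log2 difference between the methods (left) and between the p0 libraries (right) against exon length in bases (log axis) for 56 of the 57 members; colours give the call between the methods. Both fall with length, more steeply in the p0 pair (Pearson r -0.70 over all 57) than between the methods (-0.37).

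The p0 pair was far apart, and by length. Replicate 1 was above replicate 2 in 40 of 57 members, by a median of 0.36, and was the highest of all 10 libraries in 33 members and the lowest in 13. All 8 Sm genes and all 6 genes of the U6 Lsm ring were higher in replicate 1, with medians of 0.70 and 0.76, and 4 of 5 U5 genes were lower, with a median of -0.30. The relation with length had an r of -0.70 over the members and -0.45 over all 11561 features. Snrpe was at 6.82 and 5.45 in the 2 libraries and Snrnp200 at 4.77 and 5.66. What part the state of this library has in the p0 comparisons was not tested; values without it are given beside them.

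**Figure D4:**
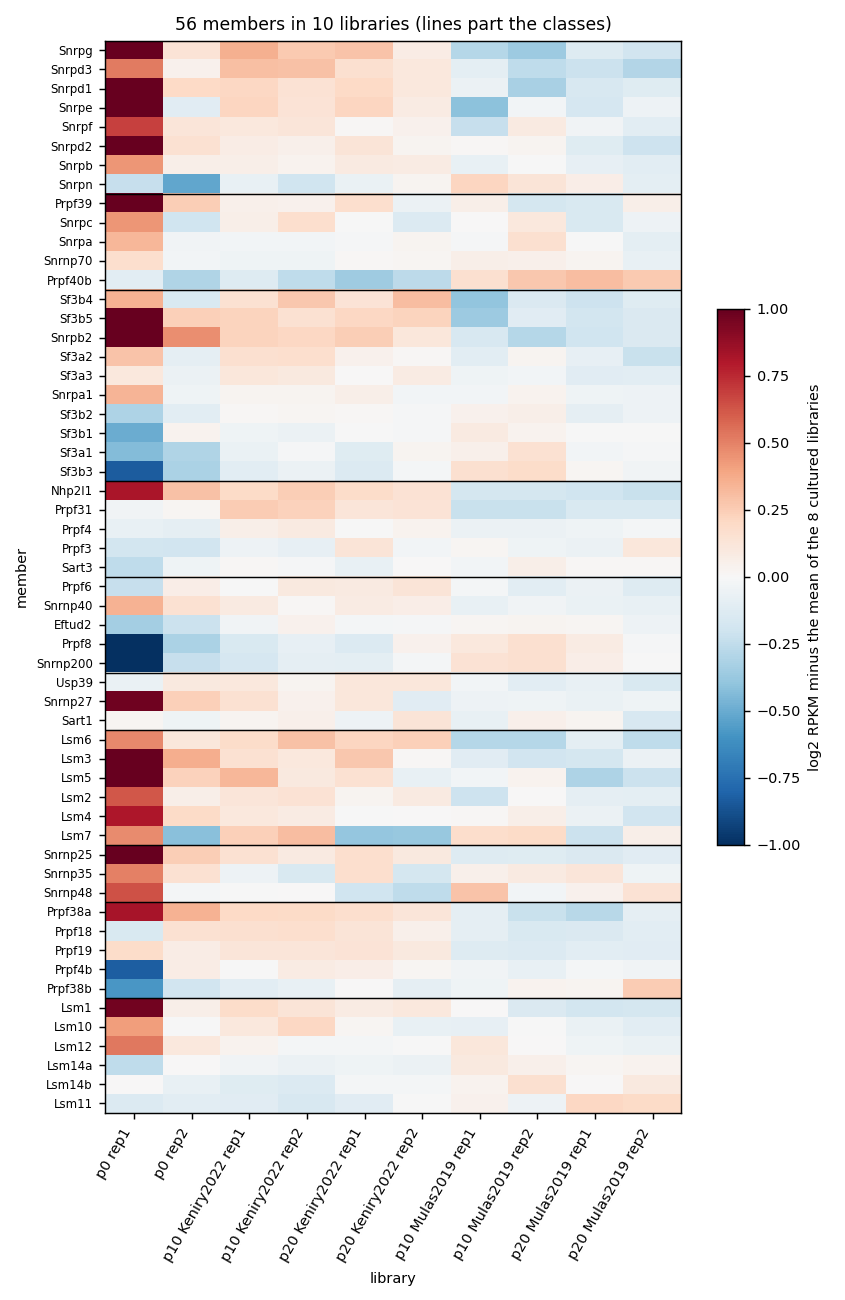
Level of 56 of the 57 members (rows, grouped by class) in each library (columns) as log2 RPKM minus the member's mean over the 8 cultured libraries, clipped at 1 and -1. The p0 replicate 1 column has the strongest colours of the 10, and members in the Sm and U6 Lsm rings are mostly red under Keniry2022 and blue under Mulas2019.

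Within single passages, groups of 2 libraries were compared in 1 model of all 10. At p10, 2 members were called, both higher under Keniry2022: Prpf31 (0.46, SE 0.07, limma adjusted p = 0.0114) and Lsm6 (0.52, SE 0.13, limma adjusted p = 0.0482). Of all 11561 features 3.76% were higher and 4.77% lower. At p20, Prpf40b alone was called (-0.59, SE 0.10, limma adjusted p = 0.0364), where 0.614% of features were higher and 1.54% lower. In the comparison matched in days, Prpf31 was higher (0.35, SE 0.07, limma adjusted p = 0.0306) and Prpf40b lower (-0.52, SE 0.10, limma adjusted p = 0.0321), against 2.84% and 3.59% of features. With the replicate number as a block, only Prpf31 at p10 remained of these 5 calls, and the limma adjusted p of the others lay between 0.0513 (Prpf40b, matched in days) and 0.0652 (Prpf40b, p20). With the numbers of p20 Keniry2022 exchanged, as its Y-linked reads lay, Prpf31 and Prpf40b matched in days also kept their calls (limma adjusted p = 0.0488 and 0.0429), and Lsm6 at p10 (0.0590) and Prpf40b at p20 (0.0524) did not. Without either library of the compared groups at p10 both calls were lost, and without any 1 of the 8 cultured libraries those at p20 and matched in days were.

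This model takes its error from all 5 pairs, the wide p0 pair included, so it was refitted without p0 replicate 1. At p10, 21 members were then higher and 8 lower, where 24.9% of features were higher and 23% lower. At p20, 22 were higher and 2 lower, against 18.6% and 17.6%. Matched in days, 19 were higher and 7 lower, against 22.8% and 20.3%. Nhp2l1 was higher by 0.39 at p10 and 0.37 at p20 (SE 0.04 each, limma adjusted p = 0.00038 and 0.00104), and Prpf40b lower by -0.41 and -0.59 (SE 0.07 each, limma adjusted p = 0.00285 and 0.00136). All 22 members higher at p20 were among the 25 of the pooled comparison. The comparisons share libraries with it.

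Against p0, no member was called under Keniry2022 at p10 or at p20, where 0.199% of features were called at either passage. Differences ran from -0.74 (Lsm3) to 0.61 (Prpf8) at p10 and from -0.86 (Lsm5) to 0.68 (Prpf8) at p20. Without p0 replicate 1, 3 members were higher at p10 (Lsm7, Prpf31 and Snrpn) and 1 at p20 (Snrpn) and none lower, against 2.42% higher and 2.82% lower of features at p10 and 2.22% and 2.39% at p20. Snrpn and Lsm7 are named here after their values were seen.

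Under Mulas2019, 7 members were higher than at p0 and 14 lower at p10, against 15.7% and 17.3% of features, and 7 higher and 15 lower at p20, against 14.7% and 14.6%. Among the called members, at p10 the largest falls were Snrpb2 (-1.15, limma adjusted p = 0.0186), Lsm3 (-1.02, limma adjusted p = 0.0304), Sf3b5 (-0.95, limma adjusted p = 0.0303) and Snrpg (-0.95, limma adjusted p = 0.0330). The largest rises were Prpf8 (0.86, limma adjusted p = 0.028), Snrnp200 (0.83, limma adjusted p = 0.0359), Sf3b3 (0.74, limma adjusted p = 0.016), and the imprinted Snrpn (0.55, limma adjusted p = 0.0178). At p20, Lsm5 (-1.16), Snrpb2 (-1.10), Lsm3 (-0.98) and Sf3b5 (-0.87) were the called members with the largest falls, and Prpf8 (0.76), Sf3b3 (0.57), Prpf38b (0.53) and Prpf40b (0.49) those with the largest rises. Snrnp200 was at 0.70 and not called (limma adjusted p = 0.0562). Without 1 library of the Mulas2019 group compared, or with library quality weights, no member was called in either direction. With the weights no feature at all was called. Without 1 of the other cultured libraries fewer members were called than in the full fit, and fewer of all features.

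Without p0 replicate 1 more members were called, with smaller differences for Snrpb2, Nhp2l1 and Prpf8 and larger ones for Snrpn at p10 (0.70) and Prpf40b at p20 (0.58). At p10, 9 were higher and 15 lower, against 19.8% and 20.6% of features, and at p20, 8 were higher and 21 lower, against 18.8% and 18.7%. Snrpb2 was then lower by -0.68 and -0.63 (SE 0.08 each, limma adjusted p = 0.00081 and 0.00111), Nhp2l1 by -0.47 and -0.50 (SE 0.05 each, limma adjusted p = 0.000866 and 0.000857), and Prpf8 higher by 0.45 and 0.35 (SE 0.08 each, limma adjusted p = 0.00339 and 0.0101). These fits rest on a single p0 library, which is assumed to vary like the other groups, and both methods' comparisons share it.

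From p10 to p20, no member changed by the test under either method, and no difference between the methods depended on passage by the interaction test. Of all features 0% were called in each of these 3 comparisons by limma, and 289, 772 and 405 had an unadjusted p under 0.05. Member differences ran from -0.66 (Lsm7) to 0.12 (Snrpn) under Keniry2022 and from -0.27 (Lsm5) to 0.21 (Lsm11) under Mulas2019. The median was -0.01 and -0.03.

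Other spliceosome genes were taken from 9 lists that hold none of the members. Of 85 tested genes, 48 were higher under Keniry2022 and 5 lower in the pooled comparison, with a median of 0.14, against 25.9% and 25.5% of all features. In single passages 4 of the 85 were higher and none lower at p10, against 3.76% and 4.77% of all features. At p20 none was higher and 1 lower, against 0.614% and 1.54%. Matched in days 2 were higher and none lower, against 2.84% and 3.59%. In the Prp19 complex and related proteins 11 of 15 were higher and 1 lower, led by Ppil1 (0.30, SE 0.03) and Snw1 (0.34, SE 0.04). Of proteins of the second step and exon junction 7 of 8 were higher, among them Magoh (0.27) and Rbm8a (0.34), core parts of the junction complex. The U5 and tri-snRNP proteins outside the rule were higher in 6 of 9, with Zmat2 (0.46) and Smu1 (0.31), and the spliceosomal helicases in 5 of 8, with Dhx15 (0.27), which takes spent complexes apart, and Ddx41 (0.25).

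Proteins that build and transport snRNPs made up a pair of lists. In the SMN and PRMT5 complexes, which load the Sm ring onto snRNA, 5 of 11 were higher and none lower, led by Strap (0.40, SE 0.05) and Smn1 (0.32, SE 0.05). In snRNA processing, export and import 5 of 11 were higher and 1 lower, with the cap-binding proteins Ncbp2 (0.43) and Ncbp1 (0.18) first. Of the minor spliceosome proteins 3 of 6 were higher, with Pdcd7 (0.18) and Zmat5 (0.16). The SR proteins, which guide splice site choice, split into 5 higher and 3 lower of 10, with Srsf7 (0.33) and Srsf3 (0.30) first. Of the branch site recognition proteins 1 of 7 was higher (U2af2, 0.11) and Sf1 was not called (-0.11). After quantile normalisation both of these lists had a median below 0: the SR proteins had 2 higher and 3 lower (median -0.05) and branch site recognition 0 higher and 3 lower (median -0.06). After length and GC correction the 85 genes gave 48 higher and 4 lower, against 27.5% and 19.6% of all features. Quantile normalisation gave 31 and 10, against 23.1% and 22.9%.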

How the data were processed

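The authors deposited 1 table of log2 values for 25965 features in 10 libraries. Reads had been mapped to mm10, by HISAT2 in the study's methods but by TopHat2 2.0.12 in the submitters' processing notes, and quantified in SeqMonk. For the annotation, strand setting and multimapping, nothing is stated in the sources used here. The values behave as log2 RPKM, with 0 reads entered as 0.9 reads, from which library totals, exon lengths and reads were recovered (100% of values whole within 0.1 reads). Members were placed with GENCODE vM21 (GRCm38).

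Tests used R 4.3.3 and limma 3.58.1 on the log2 values (eBayes with trend, two-sided, Benjamini-Hochberg adjustment over all features, log2 above 0 in at least 50% of libraries), and were checked on simulated data. The methods were compared over p10 and p20 pooled without a block, the other contrasts in a model of 5 groups. The members, classes and lists were chosen with earlier results of these data known. In each class the text names up to 3 called members with the smallest adjusted p in each direction, those called against the class, and an uncalled most abundant member; for single contrasts, up to 4 with the largest differences in each direction. Per-library values are also given for members without overlap, and other members appear in counts or as named after their values were seen. Values of 1 member are counted but not reported here.

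By the study's methods same-numbered libraries come from the same line, which the Y-linked reads bear out in every group but p20 Keniry2022. Deviations of replicate 1 correlated at 0.17 to 0.63 across features between groups, but at -0.12 to -0.70 with p20 Keniry2022.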

Additional observations from a re-analysis of the deposited data

Results flagged for a closer look

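In 114 groups of 4 libraries (57 members, each method), 3 held a library far from the other 3, where chance flags about 1 in 20 groups. Eftud2 was at log2 5.21 in p20 Mulas2019 replicate 2, against 5.28 in each of the others. Lsm6 was at 2.76 in p20 Mulas2019 replicate 1, against 2.57 to 2.60. Usp39 was at 5.38 in p10 Keniry2022 replicate 2, against 5.46 to 5.47.

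For 2 members every library moved one way at p10 and the opposite way at p20. Sf3b2 differed between the methods by -0.04 at p10 and 0.07 at p20, a change of 0.11. Lsm7, with 17 to 30 reads a library, differed by 0.09 and -0.30, a change of -0.39. By the interaction test over all features neither was called, and no member was.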

How the results depend on the processing

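In the pooled comparison, lower calls numbered 4 without a filter, 15 after quantile normalisation and 1 in the model of 5 groups; higher calls were 6 in that model, and the median was 0.013 after quantile normalisation. Leaving out 1 library gave 22 to 26 higher, 4 to 7 lower (4 without p10 Keniry2022 replicate 1) and a median of 0.08 to 0.12. Over all features these fits gave 2545 to 2942 higher and 2497 to 2832 lower. Without a filter, 2753 of 25965 features were higher and 3528 lower. Reversed single members were Lsm4 (-0.056) and Snrnp40 (-0.00232) under quantile normalisation, and Prpf8 (0.0016) and Sart3 (0.084) after length and GC correction. The cause was not tested.

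With the replicate block the pooled fit gave 23 higher and 7 lower, p10 1 higher, p20 0 lower, and matched days 0 higher and 0 lower; with the numbers of p20 Keniry2022 exchanged, an alternative chosen after seeing the data, p10 gave 1 higher, p20 0 lower, and matched days 1 higher and 1 lower. With the block, Lsm5 and Snrpd2 lost their pooled calls, Prpf31 its call in Mulas2019 p10 against p0, and Eftud2 and Prpf19 theirs at p20, where Snrpg gained one, all at limma adjusted p between 0.0425 and 0.0654. Beside these and the calls given above for single passages and matched days, the block changed no member's call. Over all features, the block gave 314 higher and 400 lower at p10, 30 and 115 at p20 and 224 and 287 matched in days. With the numbers exchanged these were 343 and 435, 34 and 122, and 247 and 313. In the pooled fit the block gave 2902 and 2847 of 11654.

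At p10, 1 member was higher under the stricter filter (log2 above 2), without a filter, with median centring and without an intensity trend, 2 were lower after quantile normalisation (median 0.014), 5 higher and 2 lower after length and GC correction, 22 and 7 with library quality weights, and 1 lower with voom on recovered reads, also chosen after seeing the data. At p20, 0 were lower under the stricter filter and after quantile normalisation (median 0.015), 4 higher after length and GC correction, and 21 higher and 3 lower with quality weights. Matched in days, 0 were higher after quantile normalisation, 2 higher and 2 lower after length and GC correction, and 17 higher and 5 lower with weights. Over all 11561 features, the weights gave 3052 higher and 2828 lower at p10 and 2072 and 2007 at p20. Matched in days they gave 2450 and 2173. Over 11284 features, length and GC correction gave 1000 and 925 at p10 and 448 and 347 at p20. Matched in days it gave 723 and 671. At p10 over all features, quantile normalisation gave 521 higher and 618 lower, median centring 407 and 543, and no intensity trend 397 and 581. Voom gave 444 and 629 there, the stricter filter 335 and 273 of 8461, and no filter 423 and 619 of 25965. At p20, quantile normalisation gave 80 and 158 and the stricter filter 31 and 64. Matched in days, quantile normalisation gave 350 and 420. Leaving out 1 library, p10 gave 0 to 21 higher and 0 to 8 lower, p20 0 to 22 and 0 to 2, and matched days 0 to 19 and 0 to 7; the highest counts came without either p0 library.

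Against p0, the Keniry2022 median at p20 was -0.014 after quantile normalisation. Under Mulas2019 at p10, 5 were lower without a filter, 11 higher and 9 lower after quantile normalisation, and 0 and 0 with quality weights. At p20, 1 was higher and 2 lower without a filter and 11 and 8 after quantile normalisation (median -0.041). There 3 were higher after length and GC correction, and 0 and 0 were called with weights. Over all 25965 features, no filter gave 1242 higher and 1187 lower at p10 and 1134 and 841 at p20. Quantile normalisation gave 1851 and 1932 of 11561 at p10 and 1531 and 1650 at p20. Length and GC correction gave 1331 and 1851 of 11284 at p20. Leaving out 1 library, Keniry2022 p10 gave 0 to 15 higher, 0 to 28 lower and a median of -0.21 to 0.020, Keniry2022 p20 0 to 16, 0 to 31 and -0.26 to 0.031, Mulas2019 p10 0 to 14, 0 to 33 and -0.33 to -0.10, and Mulas2019 p20 0 to 14, 0 to 34 and -0.41 to -0.10. The number of calls varied widely between these fits, for members as for all features, and was highest for both without p0 replicate 2. Under Mulas2019 no member was called without 1 library of the group compared.

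Depth limits Lsm7; other members had at least 143 reads in every library.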
